A study of Homo sapiens with 24 samples.

Results

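The large ribosomal subunit assembly factors are proteins that bind the precursor of the large (60S) subunit, fold and trim its rRNA, check it and release it to the cytoplasm. The genes examined here are 57 such factors outside the PeBoW complex (BOP1, PES1 and WDR12), found by symbol among the 60609 gene rows of the table. All 57 reached 1 TPM (transcripts per 1000000, a length-scaled share of the RNA in a library) in at least 3 libraries and are among the 16062 genes tested. The rule that names them is a list of symbols and uses no measured value.

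The libraries were made from mRNA of A549 cells, an established human lung adenocarcinoma line. They were transfected either with pooled siRNAs to BOP1 (siBOP1) or, as the control, with an siRNA to the insect enzyme firefly luciferase (FLuc, siFLuc). After 48 h they received interferon beta (IFN, 1000 U/mL) or a mock treatment for 8 h or 12 h. The 8 groups were siFLuc mock, siFLuc IFN, siBOP1 mock and siBOP1 IFN at each time, with 3 libraries in each and 24 in all. The depth of sequencing is unknown, since TPM does not keep it. Nothing in the labels says whether the libraries of a group came from separate cultures, so the p-values below measure only the spread between libraries. In bulk RNA, less of a transcript in every cell and fewer cells that carry it cannot be told apart.

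Assembly of the 60S subunit begins in the nucleolus, where scaffold proteins, helicases and GTPases shape the 27S-type precursor rRNA. The 5S ribonucleoprotein is then docked, the second internal transcribed spacer (ITS2) is removed, and AAA ATPases strip factors off the particle. Export adaptors carry it through the nuclear pore, and cytoplasmic factors remove the last placeholders so that it can join the small subunit. BOP1 belongs to the PeBoW complex, which acts early in this path and is needed for processing of the precursor. Many of these genes are known targets of growth signalling and of MYC.

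The targeted gene was lower in every library that received its siRNA. BOP1 lay between 32.4 and 78.8 TPM in the 12 siFLuc libraries and between 10.0 and 19.5 TPM in the 12 siBOP1 libraries. Its mean difference over the 4 comparisons was -1.84 on the log2(TPM + 1) scale (SE 0.09, adjusted p = 2.04e-11). Here and below, tests are limma on log2(TPM + 1), with 1 mean per group over all 24 libraries. Adjusted p-values are Benjamini-Hochberg values over all 16062 genes, and a gene is said to have risen or fallen when this p is under 0.05. The A549 markers KRT8, KRT18, KRT7, AKR1B10, AKR1C1 and ALDH1A1 were abundant (summed 12304 to 14617 TPM per library), and CDKN2A, which this line lacks, was listed at 0 in all 24. Of 9 markers of blood, endothelial, fibroblast and red cells, only CD68 (38.5 to 402 TPM) and COL1A1 (5.37 to 19.3 TPM) reached 1 TPM. CD3E was listed at 0 in all 24 libraries and PTPRC was at most 0.021 TPM. The part of CD68 and COL1A1 in the results was not tested.

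In each group 1 library has a column numbered 4, whereas the labels number replicates up to 3, so libraries are named here by the numbers 1, 2 and 4 of their columns. The siFLuc mock 12 h library numbered 4 stood apart. Mitochondrial genes held 6.86% of its TPM against a median of 13.6% over all libraries, and 56 of the 57 assembly factors lay above their own mean in it. Their median deviation there was 0.39 on the log2 scale, the highest of the 24 libraries. The median deviation over all tested genes was also highest in this library, at 0.14. After rescaling the columns by the median of ratios, the factors' median there was 0.22. That was below the 0.32 of the siFLuc mock 8 h library numbered 4, the highest after rescaling.

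Levels of the factors spanned more than 2 orders of magnitude. Averaged over the 24 libraries, the median factor stood at 41.4 TPM. NPM1 (nucleophosmin, an abundant nucleolar chaperone) was far above the rest at 1951 TPM, followed by EIF6 at 270 TPM and NOP53 at 196 TPM. The lowest were NOL9 (4.95 TPM), a polynucleotide kinase of ITS2 processing, URB1 (6.00 TPM) and MDN1 (6.33 TPM), the giant AAA ATPase that remodels the pre-60S particle. The 26 scaffold and early nucleolar factors had a median of 38.0 TPM, the 7 DEAD-box helicases one of 45.8 TPM and the 6 factors of export and cytoplasmic maturation one of 32.9 TPM. Members of 1 assembly could differ: in the rixosome, TEX10 stood at 15.6 TPM and its partners PELP1 and WDR18 at 32.3 and 41.4 TPM. NPM1 has 49 named pseudogenes in the table, whose summed TPM was 173 to 358 per library, and SBDS has 1, SBDSP1, at 24.5 to 82.9 TPM. How shared reads were divided is not given in the sources used here, so the values of NPM1 and SBDS are uncertain to that extent.

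**Figure D1:**
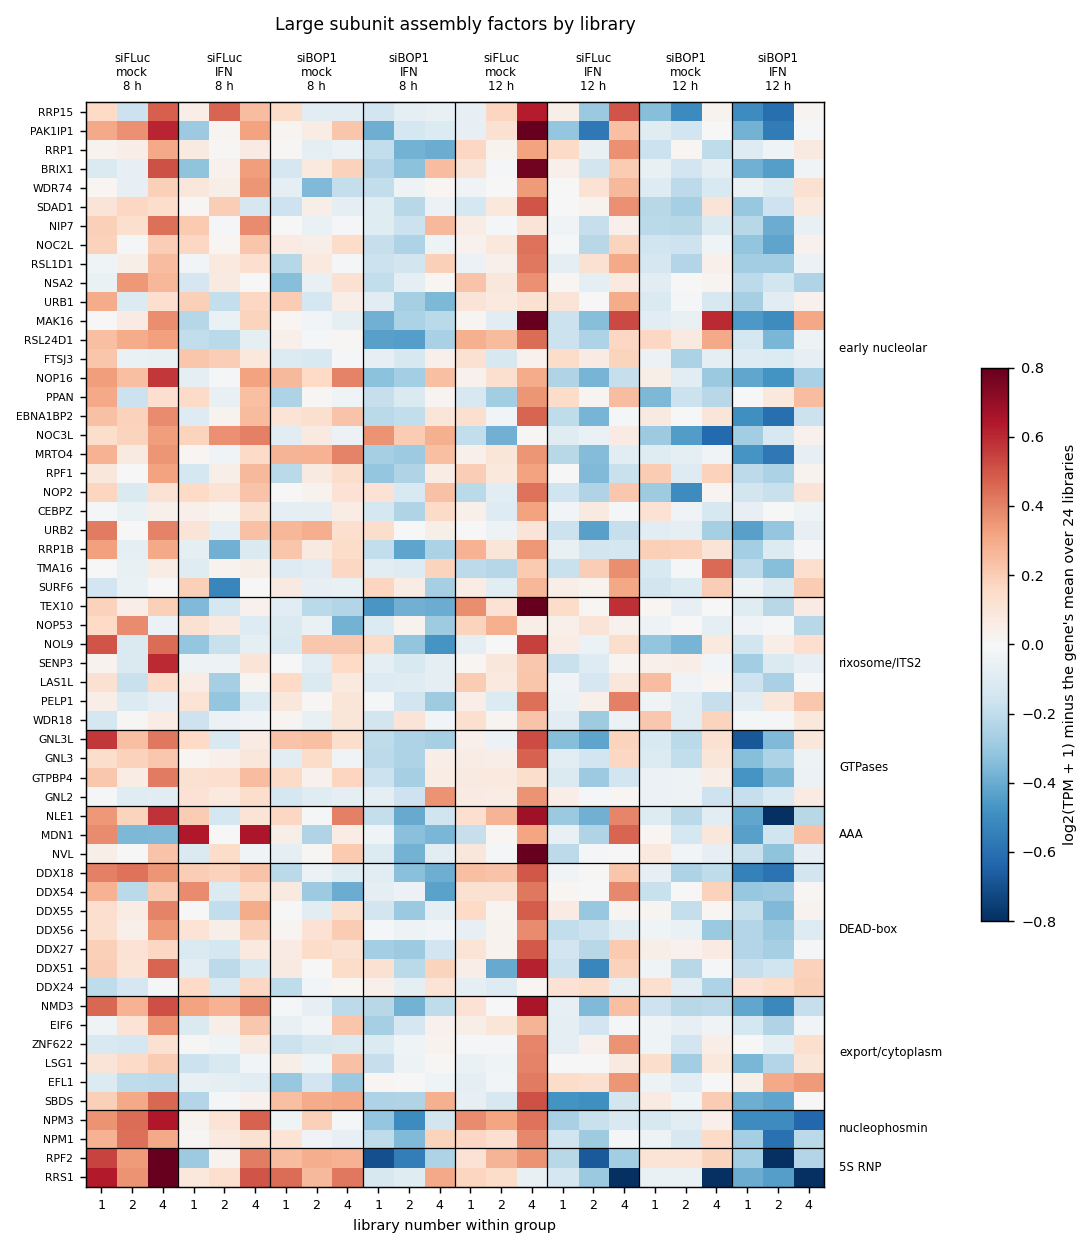
Level of each of the 57 assembly factors (rows, grouped by role) in each of the 24 libraries (columns, grouped by siRNA, treatment and time, with the library number below), as log2(TPM + 1) minus the mean of that gene over all libraries. Red is higher and blue lower, and colours end at 0.8 in both directions; the siFLuc mock columns are mostly red, above all the 12 h library numbered 4, and the siBOP1 IFN columns numbered 1 and 2 mostly blue.

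BOP1 siRNA was followed by lower levels across the factors. Averaged over mock and IFN at both times, 18 of 57 factors fell and 0 rose, where 6.91% of all genes tested fell and 10.0% rose. Their median difference was -0.17 on the log2 scale, against a median of 0.00 over all genes (-0.000737), and 54 of 57 values lay below 0. The 4 comparisons share no library, and 44 of 57 factors (77.2%) were below 0 in all 4, against 21.2% of all genes. None was above 0 in all 4, against 22.3% of all genes. The falls were small: the largest was 29.0% (DDX18). With the library number as a block within each time, the count was 34 lower and 0 higher, with all 18 of the first fit among them. In that fit 13.9% of all genes fell and 15.8% rose.

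The DEAD-box helicase DDX18, which unwinds precursor rRNA in the nucleolus, fell furthest. The gene lies on the plus strand at chr2:117814650-117832379 (GRCh38). In mock cells at 8 h it measured 59.5, 60.9 and 57.5 TPM with siFLuc (libraries 1, 2 and 4, in this order throughout) and 38.5, 43.3 and 41.9 TPM with siBOP1. With IFN at 8 h it measured 51.5, 51.0 and 52.7 TPM against 42.0, 35.4 and 34.0 TPM. At 12 h it measured 53.2, 52.6 and 63.8 TPM against 42.9, 37.6 and 38.9 TPM in mock cells, and 44.0, 45.1 and 52.5 TPM against 30.5, 29.5 and 40.3 TPM with IFN. In all 4 comparisons every siBOP1 library lay below every siFLuc library. The mean log2 difference was -0.49 (SE 0.06, adjusted p = 3.68e-06), and the single differences were -0.52, -0.49, -0.47 and -0.49 for mock at 8 h, mock at 12 h, IFN at 8 h and IFN at 12 h.

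NPM3, a nucleophosmin relative found in the nucleolus, gave the same picture at a smaller size. In mock cells it went from 74.0, 78.9 and 90.1 TPM with siFLuc to 56.2, 65.8 and 57.0 TPM with siBOP1 at 8 h, and from 74.9, 71.7 and 78.1 TPM to 52.4, 54.0 and 59.2 TPM at 12 h. With IFN it went from 58.6, 62.2 and 80.1 TPM to 46.2, 40.2 and 51.8 TPM at 8 h, and from 47.8, 50.6 and 52.8 TPM to 40.4, 40.2 and 36.8 TPM at 12 h. No siBOP1 library overlapped the siFLuc libraries of its comparison, and the mean difference was -0.44 (SE 0.06, adjusted p = 1.45e-05). Its abundant relative NPM1 lay between 1583 and 2617 TPM (median 2102) in the 12 siFLuc libraries and between 1272 and 2173 TPM (median 1801) in the 12 siBOP1 libraries. It fell by 0.24 (SE 0.06, adjusted p = 0.00786), a call lost under quantile normalization (adjusted p = 0.0676). DDX18 and NPM3 were the members whose groups were apart in all 4 comparisons. The share of all genes apart in this way was not counted, here or for IFN, so being apart only describes these members.

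NMD3, the adaptor that links the 60S particle to the exportin CRM1, fell almost as far as DDX18. It measured 48.4, 42.6 and 50.5 TPM with siFLuc and 34.6, 33.4 and 30.1 TPM with siBOP1 in mock cells at 8 h, and 38.0, 34.8 and 55.5 TPM against 31.0, 29.8 and 30.1 TPM at 12 h. With IFN it measured 43.9, 42.5 and 45.6 TPM against 29.9, 26.7 and 30.2 TPM at 8 h, and 33.3, 27.2 and 41.4 TPM against 26.0, 24.1 and 30.6 TPM at 12 h. The groups overlapped only in the last of these. The mean difference was -0.47 (SE 0.07, adjusted p = 0.000136). The other 5 export and cytoplasmic factors did not pass the test. EIF6, which keeps the 2 subunits apart, differed by -0.13 (SE 0.05, adjusted p = 0.12), and its remover SBDS by 0.01 (SE 0.08, adjusted p = 0.958).

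Both DDX18 and NMD3 carry the letters GCCAGTT in their annotated 3′ untranslated regions. This word was picked because earlier results of these same libraries showed it among genes lower with the BOP1 siRNA, so its share among such genes is no independent evidence. It was searched on the transcript strand, in the transcript of each gene with the longest 3′ untranslated region in GENCODE 29. It was found in 5 of 57 factors (8.77%), and in 1496 of 12575 tested genes with such a region (11.9%). Of the 18 factors that fell, 4 held it (22.2%), against 281 of 979 of all genes that fell (28.7%). The sites are shown with the word in capitals, since they are the sequence feature that DDX18 and NMD3 share.

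DDX18 (chr2:117831898-117831926, plus strand): tttgctgttgtGCCAGTTaatcataggat
NMD3 (chr3:161251598-161251626, plus strand): ttgttgtttttGCCAGTTtagggcagtag
NLE1 (chr17:35131886-35131914, minus strand): gtaagagagagGCCAGTTgtgatagtggc
RSL1D1 (chr16:11834949-11834977, minus strand): catcacagctgGCCAGTTtttacgtcttg
URB1 (chr21:32311814-32311842, minus strand): ggctggtcaggGCCAGTTctgctccctgg

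The 5 factors with the word had a median mean difference of -0.34 (from -0.49 to -0.20), and all 5 were below 0. The 52 factors without it had a median of -0.16 (from -0.44 to 0.06), and 49 of them were below 0. Since the word was picked from genes lower in these same libraries, the gap between these medians is no independent evidence either. NPM3, the second of the factors apart in all 4 comparisons, is among those without the word, and so are 14 of the 18 that fell. A match is a description of the letters only.

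With BOP1 siRNA 6.91% of all genes fell, 10.0% rose and 50.1% lay below 0, and 31.6% of all 57 factors fell. Among the 26 scaffold and early nucleolar factors, 9 fell (34.6%), 0 rose and all 26 mean differences lay below 0. RRP15, needed for early precursor processing, had the largest fall at -0.37 (SE 0.11, adjusted p = 0.0215), from a median of 27.0 TPM (19.3 to 37.7) with siFLuc to 22.5 TPM (15.5 to 26.6). Without a filter on low values its adjusted p was 0.0528. RRP1 fell by 0.25 and WDR74, a partner of the ATPase NVL, by 0.22, each apart in 3 of the 4 comparisons. NIP7, a pre-rRNA binding protein, went from a median of 49.1 TPM (40.5 to 63.3) to 42.8 TPM (34.8 to 55.5) and fell by 0.22 (SE 0.06, adjusted p = 0.0158). NOC2L, RSL1D1, NSA2, RSL24D1 and the methyltransferase FTSJ3 fell by 0.21, 0.20, 0.20, 0.18 and 0.17. The other 17 did not pass, from PAK1IP1 at -0.26 to SURF6 at -0.02. NOP2, the methyltransferase of large subunit rRNA and a proliferation marker, was one of them, at 61.7 TPM (48.1 to 77.4) against 57.5 TPM (39.8 to 67.2) and -0.10 (SE 0.08, adjusted p = 0.439).

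In the other roles, single members fell. DDX54 was the only helicase beside DDX18 to pass, at -0.29 (SE 0.08, adjusted p = 0.0197), and that call was not kept with libraries 1 and 2 alone. DDX24 was at 0.02 and did not differ beyond its error. GNL3 (nucleostemin, a nucleolar GTPase of proliferating cells) went from a median of 93.8 TPM (80.1 to 124) to 83.3 TPM (70.2 to 99.0) and fell by 0.20 (SE 0.06, adjusted p = 0.0249). Its call was lost without the siBOP1 mock 12 h library numbered 2 (adjusted p = 0.0501). GNL3L, GTPBP4 and GNL2 did not pass, at -0.21, -0.16 and -0.11. NLE1, which hooks MDN1 onto the particle, fell by 0.34 (SE 0.10, adjusted p = 0.0163), while MDN1 itself (-0.21) and the AAA ATPase NVL (-0.17) did not pass. TEX10 fell by 0.35 (SE 0.08, adjusted p = 0.00487), from a median of 16.7 TPM (11.7 to 29.1) to 13.6 TPM (10.7 to 16.0), and NOP53, which brings in the exosome, fell by 0.22. The remaining rixosome and ITS2 genes did not pass: NOL9 was at -0.15, SENP3 at -0.10, PELP1 and the ITS2 endonuclease LAS1L both at -0.06, and WDR18 at 0.06. Both 5S loading factors missed the threshold, RPF2 at -0.27 (adjusted p = 0.0549) and RRS1 at -0.26 (adjusted p = 0.123).

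**Figure D2:**
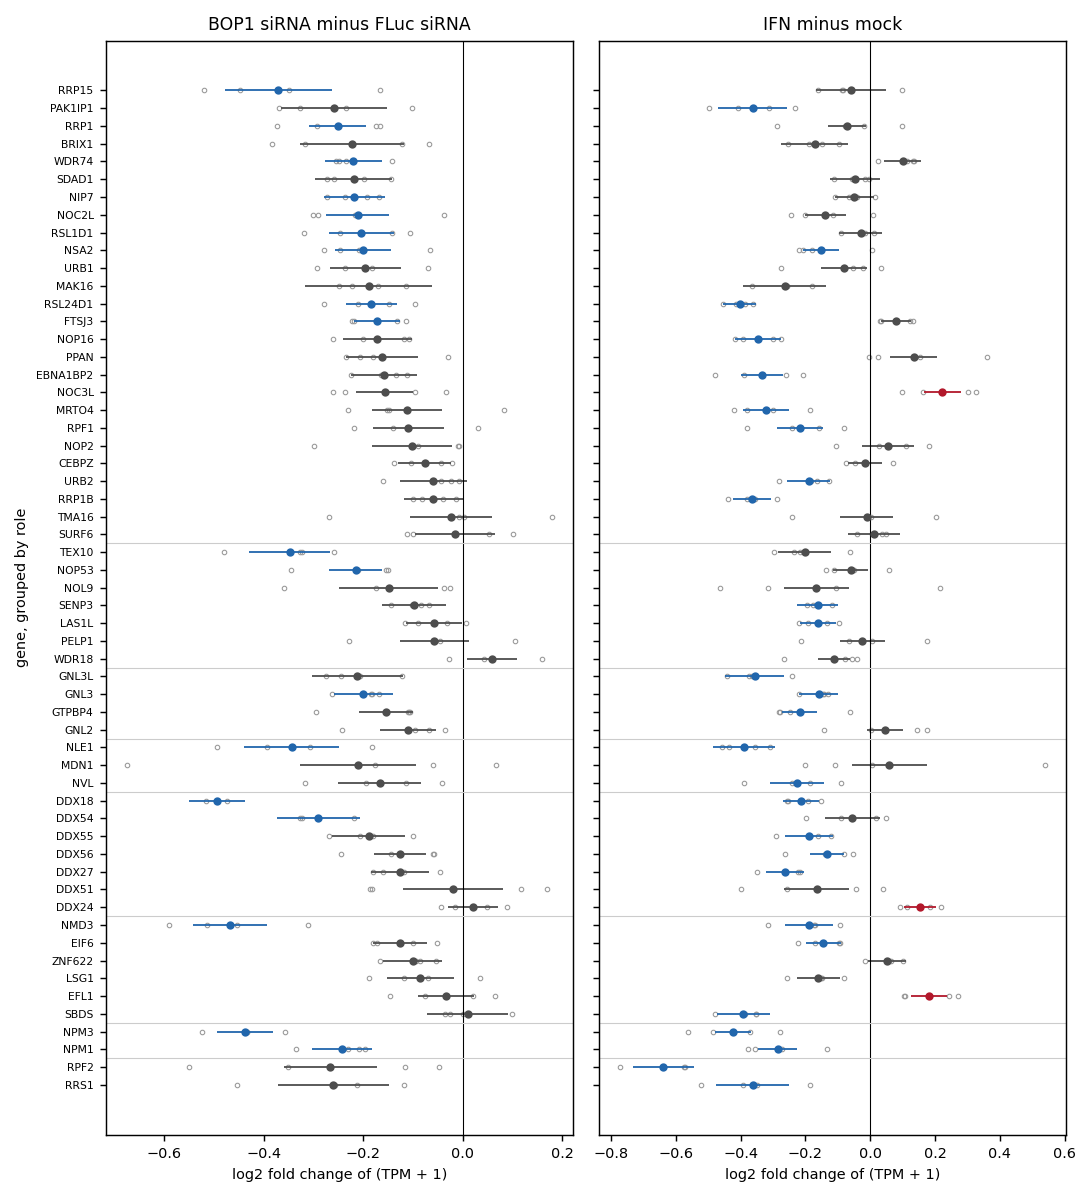
Difference in log2(TPM + 1) of each assembly factor for BOP1 siRNA against FLuc siRNA (left) and for IFN against mock (right); filled points with bars are the mean of the 4 comparisons with its standard error, open grey points the 4 single comparisons. Blue points fell, red points rose and dark grey points did not pass the test (limma, adjusted p under 0.05): 18 fell and 0 rose on the left, 27 fell and 3 rose on the right.

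Within single comparisons of 3 against 3 libraries few of these falls passed. In mock cells 2 factors fell at 8 h (DDX18 and NPM3; 0.666% of all genes fell) and 1 at 12 h (DDX18; 0.697% of all genes). With IFN 3 fell at 8 h (DDX18, NMD3 and NPM3; 0.76% of all genes) and 1 at 12 h (DDX18; 0.268% of all genes). The medians over the 57 factors were -0.14, -0.23, -0.18 and -0.12 in this order, against 0.03, 0.00256, -0.01 and -0.01 over all genes. With the library number as a block, 8, 14, 10 and 3 factors fell, where 2.58%, 3.35%, 3.84% and 1.61% of all genes fell. These single calls rest on the pooled spread: with only the 6 libraries compared in the fit, limma called 0 of 57 in each of the 4, with 11, 7, 13 and 5 factors at an unadjusted p under 0.05. With single libraries removed in turn, DDX18 was kept in mock cells at 8 h only without siFLuc library 4 or siBOP1 library 2 (2 of 6 fits), and the other 4 removals ended the call (adjusted p up to 0.0899). It was kept in mock cells at 12 h only without siFLuc library 2 (up to 0.13 in the other 5), with IFN at 8 h only without siBOP1 library 1 (up to 0.125) and with IFN at 12 h only without siBOP1 library 4 (up to 0.26). For NPM3 each of the 6 removals ended the call in mock cells (up to 0.216), and with IFN it was lost without siFLuc library 4 (0.108), siBOP1 library 1 (0.053) or siBOP1 library 2 (0.107). For NMD3 each of the 6 ended it (up to 0.161). For the mean over the 4 comparisons, DDX18, NPM3 and NMD3 passed whichever of the 24 libraries was removed (adjusted p at most 0.000417).

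The library numbered 4 with the high levels touches the siRNA comparison in mock cells at 12 h. Without it the median over the 57 factors was -0.11 in place of -0.23. The other medians also moved with the siFLuc library numbered 4, to -0.06 in mock cells at 8 h, -0.10 with IFN at 8 h and -0.07 with IFN at 12 h without it. Within library numbers, the median difference there was -0.09 for number 1, -0.14 for number 2 and -0.38 for number 4. The 12 differences within numbers over the 4 comparisons all had medians below 0, from -0.03 to -0.38.

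**Figure D3:**
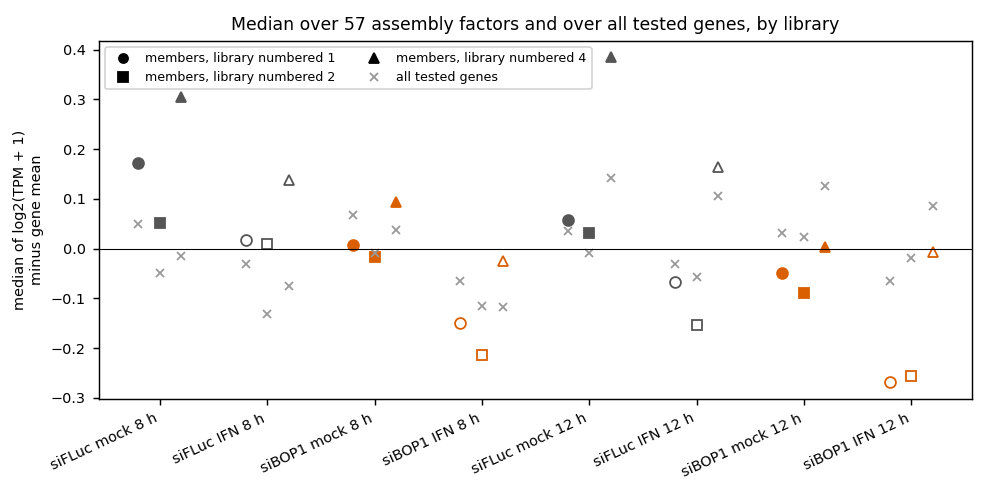
Median over the 57 assembly factors (symbols) and over all tested genes (grey crosses) of log2(TPM + 1) minus the gene's mean, for each library; circles, squares and triangles are libraries numbered 1, 2 and 4, grey marks siFLuc, orange siBOP1, filled mock and open IFN. The siFLuc mock libraries lie between 0.03 and 0.39, the siBOP1 IFN libraries between -0.27 and -0.01, and the triangle is the highest of its group in all 8 groups.

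IFN was followed by lower levels of many factors, on a background that was lower too. Averaged over both siRNAs and both times, 27 of 57 factors fell and 3 rose, where 29.0% of all genes fell and 13.0% rose. The median difference was -0.16 over the factors and -0.10 over all genes. The 4 IFN comparisons share no library with each other, but they are made from the same 24 libraries as the siRNA comparisons. In all 4, 32 of 57 factors (56.1%) were below 0, against 39.9% of all genes, and 5 (8.77%) were above 0, against 17.7%. After rescaling the columns by the median of ratios, which brings the median over all genes to -0.02, 13 factors fell and 7 rose, where 18.5% of all genes fell and 18.3% rose. The median over the factors was then -0.07, so the count of lower factors depends on the scaling.

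The largest fall with IFN was RPF2, which with RRS1 brings the 5S ribonucleoprotein to the particle. RPF2 (chr6:110982015-111028263, plus strand) measured 39.4, 34.1 and 53.9 TPM in siFLuc mock and 21.7, 27.3 and 35.9 TPM in siFLuc IFN cells at 8 h, and 29.1, 32.5 and 34.6 TPM against 22.8, 16.4 and 21.9 TPM at 12 h. With siBOP1 it measured 31.9, 32.9 and 32.7 TPM against 16.0, 17.9 and 22.4 TPM at 8 h, and 29.0, 29.0 and 30.4 TPM against 22.0, 14.9 and 22.6 TPM at 12 h. Mock and IFN libraries overlapped only for siFLuc at 8 h. The mean difference was -0.64 (SE 0.09, adjusted p = 1.24e-05), a fall of 35.8%. RRS1 went from a median of 49.9 TPM (21.0 to 81.1) in mock to 38.9 TPM (23.0 to 61.0) in IFN libraries and fell by 0.36 (SE 0.11, adjusted p = 0.0128). The RRS1 call was lost after median-of-ratios rescaling (adjusted p = 0.109), that of RPF2 was kept.

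RSL24D1, which holds the place of a ribosomal protein of the 60S subunit until the cytoplasm, was apart between mock and IFN libraries in all 4 comparisons. It measured 136, 141 and 145 TPM in siFLuc mock and 100.1, 98.7 and 109 TPM in siFLuc IFN cells at 8 h, and 140, 137 and 157 TPM against 102, 96.8 and 129 TPM at 12 h. With siBOP1 it measured 118, 114 and 116 TPM against 84.9, 84.6 and 96.0 TPM at 8 h, and 129, 121 and 142 TPM against 104, 89.0 and 112 TPM at 12 h. The single differences ran from -0.45 to -0.36, and the mean difference was -0.40 (SE 0.05, adjusted p = 2.01e-06). RRP1B, an RRP1 relative, was the other member apart in all 4, with 20.7 TPM (17.2 to 23.2) in mock and 16.2 TPM (13.2 to 17.9) in IFN libraries and a mean difference of -0.37 (SE 0.06, adjusted p = 4.02e-05). The share of all genes apart with IFN was not counted, so being apart does not set these members off from other genes.

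The nucleophosmins fell with IFN as well. NPM3 went from a median of 68.7 TPM (52.4 to 90.1) to 49.2 TPM (36.8 to 80.1), a difference of -0.42 (SE 0.06, adjusted p = 3.76e-06). NPM1 went from 2127 TPM (1763 to 2617) to 1695 TPM (1272 to 2173), a difference of -0.29 (SE 0.06, adjusted p = 0.000719). The mock and IFN ranges over 12 libraries overlapped for both, since they span both siRNAs.

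**Figure D4:**
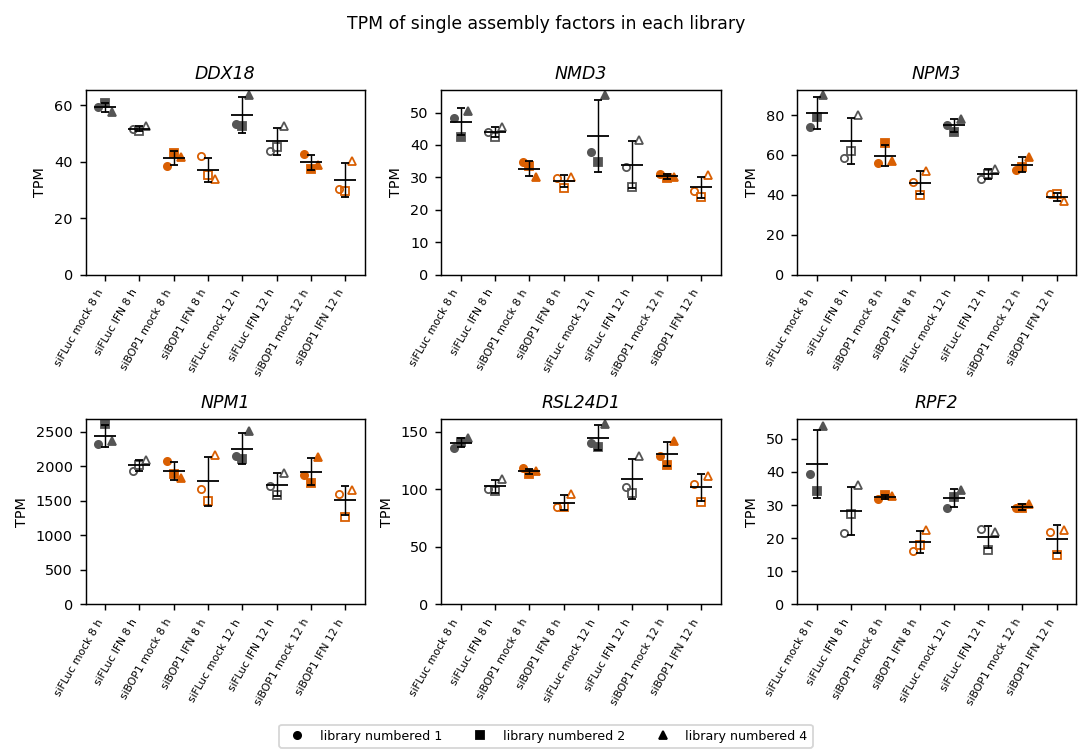
TPM of 6 assembly factors in every library, by group; circles, squares and triangles are libraries numbered 1, 2 and 4, grey is siFLuc, orange siBOP1, filled mock and open IFN, and the bar gives the group mean with its SD (n = 3). DDX18 and NPM3 are lower with siBOP1 in every pairing of groups, and RSL24D1 is lower with IFN in every one.

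Of the 6 export and cytoplasmic factors, 3 fell with IFN and 1 rose, where 29.0% of all genes fell and 13.0% rose. SBDS, which with the GTPase EFL1 evicts EIF6, fell by 0.39 (SE 0.08, adjusted p = 0.000631), from 76.4 TPM (59.6 to 93.5) to 55.2 TPM (46.2 to 79.6). Its partner EFL1 rose by 0.18 (SE 0.06, adjusted p = 0.0125), from 26.7 TPM (23.0 to 38.4) to 29.2 TPM (26.9 to 36.8), and its groups were apart in 3 of the 4 comparisons. EIF6 went from 271 TPM (257 to 345) to 251 TPM (223 to 312) and fell by 0.15 (adjusted p = 0.035), and NMD3 fell by 0.19 (adjusted p = 0.047). Both calls were lost after rescaling (adjusted p = 0.556 and 0.232) and without the filter or the intensity trend. Removing 1 library also ended that of EIF6 for 10 of the 24 libraries (up to 0.072, without the siBOP1 mock 8 h library 4) and that of NMD3 for 17 of 24 (up to 0.0963, without the siFLuc IFN 12 h library 2). LSG1, the GTPase that releases NMD3, was at -0.16 and ZNF622 at 0.05, and neither passed.

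Among the early nucleolar factors 9 fell with IFN and 1 rose, where 29.0% of all genes fell and 13.0% rose. The 34.6% of them that fell is near that share, and their median was -0.08, against -0.10 over all genes. Beside RSL24D1 and RRP1B, PAK1IP1, NOP16, EBNA1BP2 and MRTO4 (which holds the place of the stalk protein P0) fell by 0.36, 0.35, 0.33 and 0.32, and RPF1, URB2 and NSA2 by 0.22, 0.19 and 0.15. NOC3L rose by 0.22 (SE 0.06, adjusted p = 0.00385), from 23.6 TPM (15.7 to 31.5) in mock to 27.1 TPM (20.2 to 33.0) in IFN libraries. NOP2 (0.05) and NIP7 (-0.05) did not pass. Of the helicases, DDX27, DDX18, DDX55 and DDX56 fell by 0.26, 0.21, 0.19 and 0.13, and DDX24 rose by 0.15 (SE 0.05, adjusted p = 0.0183), from 100 TPM (89.2 to 116) to 115 TPM (97.2 to 121). The DDX24 call was lost under quantile normalization (adjusted p = 0.105). GNL3L, GTPBP4 and GNL3 fell by 0.36, 0.22 and 0.16 and GNL2 did not pass (0.05). NLE1 and NVL fell by 0.39 and 0.23, and MDN1 did not pass (0.06). SENP3 and LAS1L each fell by 0.16, while TEX10 (-0.20, adjusted p = 0.0506), NOL9 (-0.17), WDR18 (-0.11), NOP53 (-0.06) and PELP1 (-0.02) did not pass. Median-of-ratios rescaling ended 14 of the 30 calls, those of GNL3, NVL and LAS1L among them (adjusted p = 0.354, 0.186 and 0.3). Removing 1 library ended the GNL3 call for 13 of the 24 libraries (up to 0.0723, without the siBOP1 mock 12 h library 4). It ended that of NVL for 7 (up to 0.0651, without the siBOP1 IFN 8 h library 2) and that of LAS1L for 6 (up to 0.0558, without the siFLuc IFN 8 h library 2).

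In single IFN comparisons fitted without a block, the share of factors that fell (3.51%, 8.77%, 10.5% and 7.02%) was near that of all genes. With siFLuc 2 fell at 8 h (RSL24D1 and RRP1B; 5.07% of all genes fell) and 5 at 12 h (NPM3, RSL24D1, RPF2, NPM1 and RRP1B; 6.43% of all genes). With siBOP1 6 fell at 8 h (RPF2, RSL24D1, RRP1B, NPM3, MRTO4 and DDX27; 9.11% of all genes) and 4 at 12 h (NPM3, EBNA1BP2, RSL24D1 and RPF2; 7.58% of all genes). No factor rose in any of the 4. The medians were -0.10, -0.22, -0.15 and -0.13, against -0.09, -0.06, -0.14 and -0.08 over all genes. With the library number as a block, 11, 26, 17 and 17 factors fell, where 12.7%, 15.8%, 20.4% and 16.6% of all genes fell. In each of these blocked fits the share of factors that fell was above that of all genes. In these fits MDN1 (siFLuc 8 h), EFL1 and NOC3L (siBOP1 at both times) and PPAN (siBOP1 12 h) rose. Median-of-ratios rescaling ended 5 of the 6 siBOP1 8 h calls (all but RPF2), and EFL1 and NOC3L rose there; it also ended those of RRP1B in siFLuc at both times, NPM1 in siFLuc at 12 h and RPF2 in siBOP1 at 12 h. With only the 6 libraries compared in the fit, 1 of 2, 1 of 5, 4 of 6 and 1 of 4 calls were kept. Left-out libraries ended many of the calls too. Those kept in all 6 fits were RSL24D1 in siFLuc at 8 h, NPM3 at 12 h with both siRNAs and RPF2 in siBOP1 at 8 h (adjusted p at most 0.042). Among the others, RSL24D1 was lost in siFLuc at 12 h without the IFN library 2 (0.0665), and in siBOP1 at 8 h without the IFN library 2 (0.0609) or 1 (0.0533). At 12 h with siBOP1 it was lost without the IFN library 2 (0.138) or the mock libraries 1 (0.0511) or 4 (0.0953). RRP1B in siBOP1 at 8 h was lost without the mock library 1 (0.0646) or the IFN library 2 (0.083). The remaining calls were kept in 0 of 6 fits (DDX27) to 3 of 6 (RPF2 in siFLuc at 12 h, lost without the mock libraries 2 or 4 or the IFN library 2, up to 0.147). The median over the factors went to -0.04 in siFLuc at 8 h without the mock library 4, to -0.08 in siFLuc at 12 h without the mock library 4 and to -0.08 in siBOP1 at 12 h without the IFN library 1.

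The IFN difference of no factor was shown to depend on the siRNA or on time. For the siRNA by IFN interaction limma called 0 of 57 factors at 8 h and 0 at 12 h (0.0% of all genes at both times), with 1 and 0 factors and 353 and 259 of all genes at an unadjusted p under 0.05. For IFN by time, averaged over both siRNAs, 0 factors were called (0.00623% of all genes, which is 1 gene), with 1 factor and 1085 genes at an unadjusted p under 0.05. The factor at 8 h was MDN1, with 8.30, 4.59 and 4.61 TPM in siFLuc mock, 10.2, 6.15 and 10.2 TPM in siFLuc IFN, 6.41, 5.06 and 6.46 TPM in siBOP1 mock and 5.99, 4.67 and 4.55 TPM in siBOP1 IFN libraries. Its interaction was -0.74 with an SE of 0.33 (adjusted p = 1.0), and the groups overlapped for both siRNAs. The factor for IFN by time was NOL9, the lowest of all members, at 0.45 (SE 0.20, adjusted p = 0.725).

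Between 8 h and 12 h most factors did not pass the test, and several early factors fell. The later groups also differ in time since transfection, which cannot be told apart from time of treatment. Averaged over the 4 pairs of groups, 11 factors fell and 2 rose, where 6.26% of all genes fell and 18.7% rose. The factors' median was -0.03, against 0.07 over all genes. RRS1 fell furthest, by 0.64 (SE 0.11, adjusted p = 0.000436), from a median of 54.1 TPM (39.2 to 81.1) at 8 h to 36.7 TPM (21.0 to 48.4) at 12 h. The libraries numbered 4 enlarge this fall. RRS1 was higher in them than in numbers 1 and 2 at 8 h (by 0.32) and lower at 12 h (-0.55). With libraries 1 and 2 alone the RRS1 call was kept. NOC3L went from 28.4 TPM (23.3 to 33.0) to 22.0 TPM (15.7 to 26.0) and fell by 0.40 (SE 0.06, adjusted p = 7.43e-05). URB2 and NOP16 fell by 0.33 and 0.31, and MRTO4, NIP7, NPM3, GTPBP4, EBNA1BP2, DDX56 and SBDS by between 0.25 and 0.19 (MRTO4 0.25, EBNA1BP2 0.19). EFL1 rose by 0.25 (SE 0.06, adjusted p = 0.00279), from 26.7 TPM (23.0 to 28.9) to 30.5 TPM (26.9 to 38.4), and TEX10 by 0.30 (SE 0.08, adjusted p = 0.0108), from 13.3 TPM (10.7 to 17.5) to 15.7 TPM (12.9 to 29.1).

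With a block by library number within each time, 19 factors fell and 4 rose, all 13 of the first fit among them, where 11.2% of all genes fell and 29.7% rose. The numbers are nested in the times here, so this block pairs no library of 8 h with one of 12 h. Removing any of 16 of the 24 libraries ended the SBDS call (up to 0.0876, without the siBOP1 IFN 8 h library 4). After median-of-ratios rescaling 21 fell and 2 rose, all 13 among them, where 13.5% of all genes fell and 12.5% rose.

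**Figure D5:**
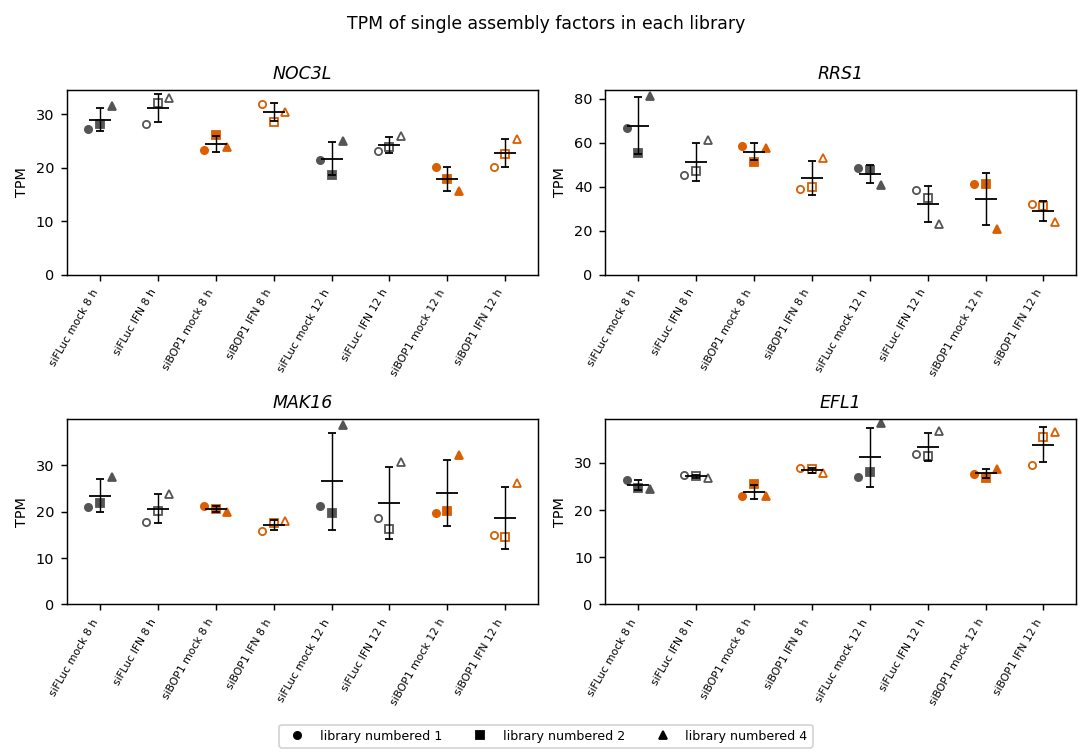
TPM of NOC3L, RRS1, MAK16 and EFL1 in every library, by group; circles, squares and triangles are libraries numbered 1, 2 and 4, grey is siFLuc, orange siBOP1, filled mock and open IFN, and the bar gives the group mean with its SD (n = 3). At 12 h the libraries numbered 4 hold the lowest RRS1 (21.0 to 41.0 TPM) and the highest MAK16 (26.2 to 38.6 TPM) of their groups.

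The libraries numbered 4 differed from those numbered 1 and 2 in many factors, most at 12 h. In a fit of group plus number within time, 34 factors were higher in them and 2 lower at 12 h, where 31.3% of all genes were higher and 9.09% lower. At 8 h 14 were higher and 1 lower, where 8.55% of all genes were higher and 8.72% lower. The factors' median was 0.24 at 12 h and 0.13 at 8 h, against 0.12 and -0.01 over all genes. Rescaling by the median of ratios took the median over all genes at 12 h to -0.01 and that of the factors to 0.09, with 13 factors higher and 3 lower, where 16.3% of all genes were higher and 16.8% lower. MAK16, an early factor of the particle, was furthest up, with 38.6, 30.7, 32.2 and 26.2 TPM in the 4 libraries numbered 4 at 12 h and 14.5 to 21.3 TPM (median 19.1) in the other 8. Its difference was 0.78 (SE 0.07, adjusted p = 2.83e-07), and the libraries did not overlap. RRP15, PAK1IP1 and GNL3L were higher by 0.56, 0.51 and 0.50. RRS1 went the other way at 12 h, with 41.0, 23.0, 21.0 and 23.8 TPM against 31.2 to 48.4 TPM (median 39.9), a difference of -0.55 (SE 0.09, adjusted p = 0.000153). At 8 h, by contrast, RRS1 was higher in the libraries numbered 4, by 0.32 (SE 0.09, adjusted p = 0.0206), a call lost without the siFLuc mock, siFLuc IFN or siBOP1 IFN library numbered 4 (0.0972, 0.0856 and 0.0863). BRIX1, RPF2 and NOP16 were higher at 8 h by 0.46, 0.37 and 0.34, the call of RPF2 being lost without the same 3 libraries (0.112, 0.104 and 0.0621). NOP53 was lower at both times, by 0.26 (adjusted p = 0.000525) and 0.12 (adjusted p = 0.037). Its 12 h call was lost without any of the 3 siFLuc mock or 3 siBOP1 IFN libraries (up to 0.161, without the siBOP1 IFN library 4). NOP2, GNL3, SBDS, NMD3 and MDN1 were higher at 12 h by 0.42, 0.30, 0.38, 0.33 and 0.42, whichever of the 12 libraries was removed. NPM1 was higher by 0.23 (adjusted p = 0.018), lost without the siFLuc mock library 4 (0.0527). After rescaling, the calls of NMD3 and NPM1 were lost, and so were those of NIP7, EIF6 and PELP1, at 0.15, 0.12 and 0.24 before it. Removing 1 library ended the call of NIP7 for 11 of the 12 libraries (all but the siBOP1 mock library 2, up to 0.192), and that of PELP1 for 6 (up to 0.169, without the siFLuc mock library 4). The EIF6 call was lost without the siFLuc mock (0.0734) or siBOP1 IFN (0.0578) library 4.

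The promoters of the factors were searched for 2 words, CACGTG (the E-box bound by MYC and related proteins) and the core of the interferon-stimulated response element (ISRE), which is GAAA, any 2 bases and GAAA again, searched on both strands. The windows run from 250 bases before to 50 after an annotated start in RefSeq on GRCh38.p14, and 50 of the 57 factors matched there, with 59 windows. CACGTG was found in 16 of 59 windows (27.1%), against 9.37% of 15929 windows of genes tested and 7.26% of all 35116 windows. The ISRE core was found in 6 of 59 (10.2%), against 2.98% of the windows of genes tested and 3.57% of all windows. Windows of 1 gene can overlap and share a site, as they do for EIF6 and WDR74. Counted by gene, CACGTG was in 15 of 50 factors (30%) against 12.6% of tested genes, and the ISRE core in 4 of 50 (8.0%) against 4.01%. Of the 15 genes with CACGTG, DDX54, GNL3, NLE1 and TEX10 fell with BOP1 siRNA. These 4 of 15 are near the 31.6% of all 57 factors that fell with it. The words lie in these 30-base stretches, printed on the strand of the gene with the word in capitals, and chosen because these genes fell.

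DDX54 (chr12:113185522-113185551, minus strand): ctcagcggaggtCACGTGgtcaccgcacct
GNL3 (chr3:52686026-52686055, plus strand): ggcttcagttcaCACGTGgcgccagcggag
NLE1 (chr17:35142274-35142303, minus strand): ctctttctcctcCACGTGgggacgcaggat
TEX10 (chr9:100352955-100352984, minus strand): gcgggctgcgatCACGTGagcacagcaggg

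The word starts 61 bases before the annotated start in DDX54 and 30 before it in TEX10, and 7 and 13 bases into the transcript in GNL3 and NLE1. Of the 4 genes with the ISRE core (EIF6, MDN1, RPF1 and WDR74), EIF6 and RPF1 fell with IFN, MDN1 and WDR74 did not pass, and none rose. Both falls were lost after median-of-ratios rescaling (adjusted p = 0.556 and 0.188), and 2 of 4 is near the 47.4% of all 57 factors that fell. The stretches of EIF6 and RPF1 are given to show the match.

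EIF6 (chr20:35284774-35284803, minus strand): gacggaagtgGAAACGGAAAcctttttagg
RPF1 (chr1:84479236-84479265, plus strand): gagaaggctaTTTCCGTTTCcgtacggaag

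In RPF1 the capitals are the reverse complement of the word. These matches describe the letters of the windows and say nothing of binding.

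Other genes of ribosome production, listed by pathway, were read the same way. With BOP1 siRNA, averaged over the 4 comparisons, 6.91% of all genes fell and 10.0% rose (median -0.000737). Of 45 genes of the small subunit processome, 18 fell and 0 rose (median -0.19). Of 20 RNA polymerase I genes 7 fell and 1 rose (median -0.17), and of 23 further 60S and rRNA processing genes 5 fell and 0 rose (median -0.15). The median of the 57 assembly factors, -0.17, lies within the range of these 3 lists. With IFN, averaged over the 4 comparisons, 29.0% of all genes fell and 13.0% rose (median -0.10). Of the 45 processome genes 9 fell and 0 rose (median -0.13), a smaller share lower than among all genes. Of the 23 further genes 7 fell and 1 rose (median -0.10), a share lower near that of all genes. Of the 20 RNA polymerase I genes 10 fell and 0 rose (median -0.17), a larger share lower than among all genes.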

How the data were processed

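The authors deposited 1 table of TPM values, 60609 gene rows by 24 columns, each summing to 1000000. The aligner, quantification tool, build and annotation are not given in the sources used here. Per the labels' protocols, libraries came from a stranded mRNA kit. Of the columns, 16 match a labelled replicate; the 8 numbered 4 were used as members of their group. The members and gene lists were chosen with earlier results of these data known.

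Genes of at least 1 TPM in at least 3 columns were compared in R 4.3.3 by limma 3.58.1 (moderated linear models with an intensity trend, 1 mean per group) after taking log2(TPM + 1). A fold change on this scale understates changes of low genes. The code was tested on simulated data. There were 16 comparisons, adjusted within each. Members named are all those called where at most 8 were, otherwise the 4 largest rises and falls, with NPM1, NOP2, NIP7, GNL3, EIF6, SBDS, NMD3, MDN1, NVL, PELP1, LAS1L and RRS1; others are named to account for each role. Coordinates are those of GENCODE 29 on GRCh38 (13 of 57 IDs share its version).

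Same-numbered libraries of compared groups deviated together from the group means (r across genes 0.12 to 0.51, 24 of 24 pairs above 0.1), so a block by number was fitted too; for numbers 1 and 2 alone, r was above 0.1 in 3 of 8. Alternatives were the pseudocount (0.1), filters, 2 rescalings, the variance trend, fewer libraries and the block.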

Additional observations from a re-analysis of the deposited data

How the results depend on the processing

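Among the summary results, the 16 counts of called factors and their medians, 571 values under an alternative stayed close to the main one and 89 moved. Counts of called factors are given for IFN (siFLuc at 8 h and 12 h, then siBOP1 at both times), then for BOP1 siRNA (mock at 8 h and 12 h, then IFN at both times). A block by library number gave 12, 26, 19 and 20, then 8, 14, 10 and 3, with 34 for the siRNA mean and 23 for time. This block ended no call of the siRNA, IFN or time means. For the time mean it is no pairing, since it links no library of 8 h with one of 12 h. Libraries numbered 1 and 2 alone gave 9, 13, 15 and 16 for IFN, all of them lower. In those fits 8.65%, 11.3%, 13.6% and 13.7% of all genes fell. The same libraries gave 23 for time (21 lower), where 8.9% of all genes fell and 13.7% rose. Fitting only the groups compared gave 1, 1 and 1 for IFN (siFLuc 8 h, siFLuc 12 h, siBOP1 12 h) and 0, 0, 0 and 0 for siRNA. Quantile normalization gave 5, 16, 10 and 12 for IFN (4, 16, 8 and 9 lower). There 5.91%, 9.7%, 7.91% and 10.7% of all genes fell, and 6.28%, 7.64%, 7.07% and 7.88% rose. It gave 3 for siRNA in mock 12 h, all lower, where 1.06% of all genes fell. For time it gave 21 (18 lower), where 11.7% of all genes fell and 12.0% rose. Median-of-ratios rescaling gave 3 for IFN in siFLuc 12 h, 3 in siBOP1 8 h (2 higher and 1 lower in place of 0 and 6, median 0.0022) and 23 for time. Of all genes, 5.0% fell and 8.55% rose in siFLuc 12 h, and 4.35% fell and 8.24% rose in siBOP1 8 h. Without the filter, IFN gave 1 (siFLuc 8 h) and 2 (siFLuc 12 h), and siRNA 1 (mock 8 h) and 0 (IFN 12 h, with 5 factors at an unadjusted p under 0.05 in limma). Without the intensity trend, the counts were 3 (IFN, siFLuc 12 h), 1 (siRNA, mock 8 h) and 0 (siRNA, IFN 12 h, with 4 unadjusted). A mean of at least 5 TPM gave 8 (IFN, siFLuc 12 h) and 2 (siRNA, mock 12 h). For the libraries numbered 4, no filter gave 9 at 8 h. At 12 h rescaling gave 16 (median 0.0927) and quantile normalization 19 (median 0.0683), and without the replicate block 0 (10 unadjusted) and 14 passed at 8 h and 12 h. With quantile normalization 15.8% of all genes were higher and 15.8% lower at 12 h. Shares of all genes are not given for the filters, the trend, the groups compared alone, left-out libraries or the fit without the block. Those counts describe the factors only. For named factors, 1450 results under an alternative were the same, 296 were weaker and 2 changed sign. Both changes of sign were for the libraries numbered 4 at 12 h: NIP7 at -0.0226 under quantile normalization and EIF6 at -0.0227 after rescaling. The cause was not tested.

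With 1 library left out, counts ran from 1 to 3, 1 to 10, 1 to 7 and 1 to 8 for IFN, from 0 to 1 in each siRNA comparison, from 20 to 34 and 16 to 25 for the means, from 11 to 16 for time, and from 7 to 17 and 25 to 39 for the libraries numbered 4. Interactions stayed at 0. The median for IFN in siFLuc at 12 h ran from -0.30 to -0.0816. Since TPM keeps no depth, no counting interval can be given for the lowest factors.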
